A study of Homo sapiens with 8 samples.

Results

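ANXA4 lies on the short arm of human chromosome 2, between AAK1 and GMCL1, and was described here together with 9 protein-coding genes around it. They are GFPT1, NFU1 and AAK1 on one side, and GMCL1, SNRNP27, MXD1, PCBP1, C2orf42 and TIA1 on the other. The 10 genes were chosen by name and position, with earlier results of these data known, and are 10 of the 28395 genes in the deposited table. All 10 passed the filter on low values (a normalized count of at least 10 in at least 2 libraries), as did 14040 genes in all.

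Polyadenylated RNA was sequenced from A-498, an established human kidney cancer line, in 8 libraries. Control line 1 carried non-targeting sgRNA-1, control line 2 carried non-targeting sgRNA-2, and both are wild type per the labels. The KO guide 1 line and the KO guide 2 line are labelled ANXA4 knockouts and carried ANXA4 sgRNA-1 and ANXA4 sgRNA-2. Each line had 2 replicates and was grown for 24 h without reaching confluence. Each guide was represented by 1 line, so the effect of a guide and a property of that line cannot be told apart, and the labels do not say whether a line was 1 clone. The labels do not state that replicates were separate cultures, so the p-values measure only the spread between these libraries.

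Annexin A4, the product of ANXA4, is a cytoplasmic protein that binds acidic phospholipids of membranes when calcium rises. It is abundant in epithelial cells, kidney among them, and has been studied in membrane repair and exocytosis. A guide RNA directs the Cas9 nuclease to cut inside the target gene, and repair of the cut often leaves a small insertion or deletion. Such a change can end the reading frame, with or without loss of the transcript, and a read count per gene measures the transcript and not the protein. The genes around ANXA4 were taken for their place on the chromosome and not for a shared function.

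Library depth ranged from 15784890 to 22631588 reads assigned to genes, and mitochondrial genes held 4.67% to 13.8% of them, with the highest share in replicate 2 of the line labelled KO guide 2. PAX8, a transcription factor of kidney epithelium and its tumours, was at 2987 to 4476 normalized counts, and PAX2 at 232 to 412. CA9, a hypoxia-response gene often high in clear cell kidney cancer, was low at 2.07 to 24.8. The blood gene CD3E was at 0 in every library, and PTPRC, PECAM1, VWF and DCN did not pass 4 reads. CD68 was at 1784 to 4409 and COL1A1 at 177 to 1408.

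In the RefSeq annotation of GRCh38.p14 the 10 genes span 0.929 Mb, from GFPT1 (chr2:69319780-69387227, minus strand) to TIA1 (chr2:70209444-70248793, minus strand). ANXA4 (chr2:69643808-69827112, plus strand) begins 68 bases from the start of AAK1, which is transcribed in the opposite direction, and ends 2547 bases before GMCL1. The longest coding transcript of ANXA4 in GENCODE v29 has 13 exons. RefSeq places 2 starts of ANXA4 98.3 kb apart, an upstream start beside AAK1 and a main start next to the coding exons. Promoter windows of 300 bases (250 before a start and 50 after it) were found for 9 of the 10 genes, 13 windows in all, and none was matched for C2orf42.

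3 windows are printed because the counts turn on these genes: both starts of ANXA4, and GFPT1, the neighbour that rose. All are RefSeq sequence of GRCh38.p14, 5′ to 3′ on the strand of the gene. Capitals mark an E-box (CACGTG, the site of MYC and MAX family proteins, among them MXD1) in the first, at chr2:69741884-69742183 on the plus strand. In the second, at chr2:69643558-69643857 on the plus strand, capitals mark the 168 bases that also lie in the promoter window of AAK1 (chr2:69643690-69643989, minus strand). In the third, at chr2:69387178-69387477 on the minus strand, capitals mark 4 GC boxes (GGGCGG).
ANXA4 main start: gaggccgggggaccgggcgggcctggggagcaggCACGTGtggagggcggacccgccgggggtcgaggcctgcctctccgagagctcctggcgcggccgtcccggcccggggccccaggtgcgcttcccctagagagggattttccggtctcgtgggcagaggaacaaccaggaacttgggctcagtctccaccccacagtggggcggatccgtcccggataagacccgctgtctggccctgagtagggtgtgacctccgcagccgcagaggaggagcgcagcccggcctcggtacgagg
ANXA4 upstream start: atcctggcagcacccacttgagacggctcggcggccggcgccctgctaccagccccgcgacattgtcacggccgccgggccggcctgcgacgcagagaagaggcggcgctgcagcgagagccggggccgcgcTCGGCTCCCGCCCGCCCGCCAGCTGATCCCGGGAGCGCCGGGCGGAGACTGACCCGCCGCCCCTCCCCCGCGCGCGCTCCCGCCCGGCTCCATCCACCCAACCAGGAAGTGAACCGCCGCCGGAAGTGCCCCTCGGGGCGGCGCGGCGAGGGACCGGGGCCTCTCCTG
GFPT1 start: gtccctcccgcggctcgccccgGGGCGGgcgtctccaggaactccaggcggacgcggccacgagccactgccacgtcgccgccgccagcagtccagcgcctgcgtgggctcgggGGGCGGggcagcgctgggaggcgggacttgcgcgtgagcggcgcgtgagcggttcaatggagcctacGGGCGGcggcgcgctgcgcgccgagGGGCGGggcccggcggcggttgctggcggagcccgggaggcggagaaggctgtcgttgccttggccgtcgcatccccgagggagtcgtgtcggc
Both strands were searched for the 3 motifs. An E-box (CACGTG) was in 1 of the 13 windows, that of the main ANXA4 start, against 7.26% of all 35116 windows in RefSeq. A GC box (GGGCGG) was in 11 of the 13, against 44.95% of all windows, and a CCAAT box (CCAAT) in 3, against 34.6%. Some of these windows overlap, among them those of AAK1 with each other and with the upstream ANXA4 window. The same site can therefore be counted more than once. These matches describe the letters only.

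The first question was whether ANXA4 transcript was lost in the lines labelled as knockouts. Control line 1 held 2821 and 3614 normalized counts of ANXA4, and control line 2 held 3858 and 6773. In the KO guide 1 line it was at 236 and 234, from 301 and 226 reads, while in the line labelled KO guide 2 it was at 3433 and 4142. Both KO guide 1 libraries thus lay far below all 4 control libraries, and both libraries of the line labelled KO guide 2 lay inside the control range.

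In the KO guide 1 line the ANXA4 level was 5.51% of the control mean, a log2 difference of -4.10 (SE 0.22, 95% interval -4.59 to -3.61). The adjusted p was 5.88e-05 by limma with Benjamini-Hochberg adjustment over all 14040 genes. In the line labelled KO guide 2 it was 88.8% of the control mean, a log2 difference of -0.10 (SE 0.22, limma adjusted p = 0.818). The interval of that difference, -0.59 to 0.39, leaves room for a fall or a rise of that size in the transcript and does not reach the level of the KO guide 1 line. The direct difference of the line labelled KO guide 2 from the KO guide 1 line was 3.998 (SE 0.25, limma adjusted p = 0.00014). The line labelled KO guide 2 thus showed no loss of ANXA4 transcript on the scale of the KO guide 1 line. Since a knockout can keep its transcript, the count cannot say whether that label holds. Whether the protein was lost was not measured here.

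Ordered by mean ± SD (n = 2 libraries each), ANXA4 was at 235 ± 0.856 in the KO guide 1 line, 3217 ± 561 in control line 1, then 3787 ± 501 in the line labelled KO guide 2, and highest at 5315 ± 2061 in control line 2. Of the neighbours in that order, only the lowest step separated libraries that did not overlap. Control line 1 and the line labelled KO guide 2 overlapped, as did the line labelled KO guide 2 and control line 2. The control lines themselves differed by 0.68 on the log2 scale (SE 0.25, limma adjusted p = 0.220), called only once replicate pairs were blocked (adjusted p = 0.0140), which called 5.68% of all genes higher, and in none of the other alternatives (0.0140 to 0.697 over all). That difference rested on replicate 2 of control line 2: without it the value was 0.27. With all 4 knockout-labelled libraries set against the 4 control libraries, ANXA4 gave -2.10 (SE 0.90, limma adjusted p = 0.407), an average of a line that lost the transcript and a line that did not.

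**Figure D1:**
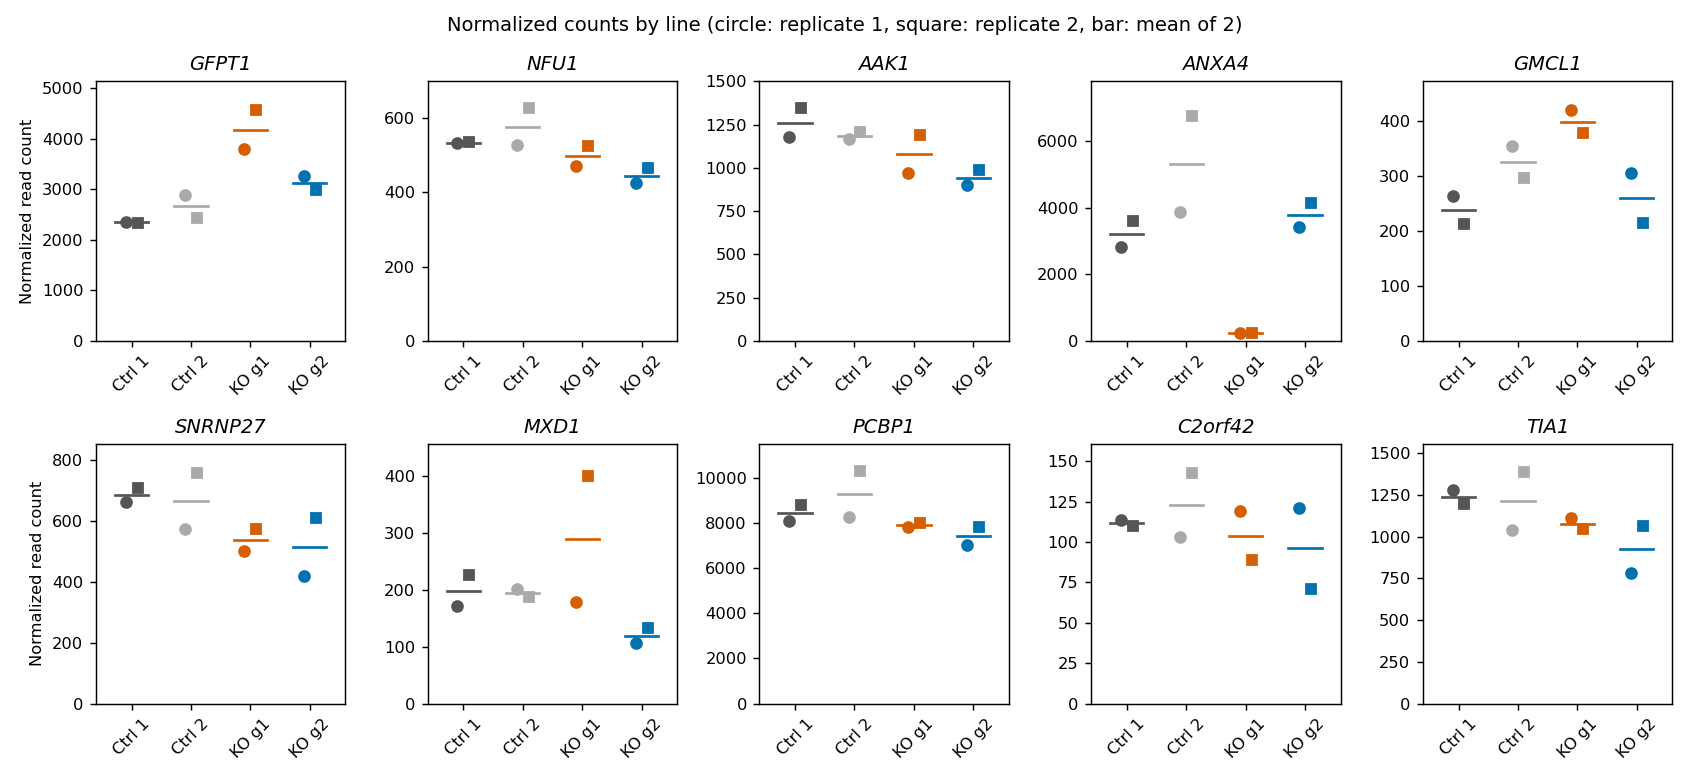
Normalized read counts (vertical axes, each starting at 0) of the 10 genes in chromosome order, for control line 1, control line 2, the KO guide 1 line (KO g1) and the line labelled KO guide 2 (KO g2). Circles and squares are replicates 1 and 2 and bars their mean. ANXA4 is near 235 in the KO guide 1 line and inside the control range in the line labelled KO guide 2.

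The next question was whether the KO guide 1 line lost ANXA4 alone. None of the 9 neighbours was called lower (limma adjusted p under 0.05), while 3.18% of all tested genes were, and 1, GFPT1, was called higher, against 3.82% of all tested genes. The neighbours' log2 differences ran from -0.32 to 0.74 with a median of -0.16, beside -0.00 over all tested genes, and 6 of 9 were below 0. At an unadjusted p under 0.05, 2 of the 9 passed, both upward, beside 24.0% of all tested genes in either direction. The edgeR and DESeq2 tests on recovered reads likewise called 0 lower and 1 higher, where they called 7.57% and 10.3% of all genes in either direction.

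GFPT1, the enzyme that commits fructose 6-phosphate to the hexosamine pathway and so to protein glycosylation, was the neighbour that rose. Its counts were 2352 and 2340 (control line 1), 2884 and 2435 (control line 2), and 3789 and 4563 (KO guide 1). Both KO guide 1 libraries were above all 4 control libraries. The log2 difference was 0.74 (SE 0.13), with a limma adjusted p of 0.0132 and 6.02e-05 to 0.159 over the alternatives. The call was lost against control line 2 alone (0.0574), without control line 1 replicate 2 (0.0550), and without either KO guide 1 library (0.0631 and 0.159).

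GMCL1, a BTB-domain relative of the fly germ cell-less protein and the gene just past the end of ANXA4, was at 420 and 378 in the KO guide 1 line. The controls held 263, 213, 355 and 297, so both libraries were above every control library. The log2 difference of 0.52 (SE 0.18) did not pass the test (limma adjusted p = 0.128), but did once replicate pairs were blocked (0.0102; 0.0102 to 0.503 over the alternatives). With that block 24.4% of all tested genes were called in this comparison, against 7.01% without it.

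MXD1, which pairs with MAX and opposes MYC, differed most between replicates. It was at 178 and 400 in the KO guide 1 line and at 171 to 226 in the controls, so the replicates stood on either side of the highest control. The log2 difference was 0.45 (SE 0.30, limma adjusted p = 0.394).

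The 6 other neighbours had log2 differences between -0.32 and -0.16 in the KO guide 1 line, with limma adjusted p-values of 0.320 to 0.718. NFU1, which hands iron-sulfur clusters to mitochondrial enzymes, was at 472 and 524, just under the lowest control count of 527. PCBP1, an abundant RNA-binding protein that also carries iron, was at 7814 and 7972, under the lowest control of 8071. These 2 lay below all controls and GFPT1 and GMCL1 above all of them, 2 of 9 in each direction, while 16.8% of all tested genes were below and 17.1% above. AAK1, SNRNP27, C2orf42 and TIA1 overlapped the control range, AAK1 at 972 and 1187 against 1164 to 1343, for example. SNRNP27 had the lowest value, -0.32 (SE 0.18, limma adjusted p = 0.320).

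The third question was where the 9 neighbours stood in the line labelled KO guide 2, in which ANXA4 was inside the control range. 8 of the 9 neighbours had a log2 difference below 0 there, with a median of -0.33 and a range of -0.72 to 0.32, but none was called. Of all tested genes 11.2% were called, 6.67% lower and 4.54% higher. At an unadjusted p under 0.05, 5 of the 9 passed by limma and by edgeR, where 26.7% of all tested genes did by each, and 4 by DESeq2, where 24.0% did. The latter 2 tests also called 0 of the 9 while calling 11.0% and 13.1% of all genes. When replicates were blocked, with pairs taken from the replicate numbers, 5 were called lower (NFU1, AAK1, SNRNP27, MXD1, TIA1) and GFPT1 higher. With that block 14.9% of all tested genes were called lower and 12.5% higher.

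AAK1, the kinase that phosphorylates the AP2 adaptor of clathrin-coated pits, starts beside the upstream ANXA4 start. It was at 1179, 1343, 1164 and 1207 in the controls and at 899 and 985 in the line labelled KO guide 2, below every control. The log2 difference was -0.38 (SE 0.13, limma adjusted p = 0.0968, blocked 0.0120; 0.0120 to 0.486 over the alternatives). On the other side of ANXA4, GMCL1 was at 305 and 215 in this line, inside the control range of 213 to 355, with a log2 difference of -0.11 (SE 0.18, limma adjusted p = 0.748).

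MXD1 had the lowest value of the 9. Its counts were 171, 226, 200 and 187 in the controls and 105 and 133 in the line labelled KO guide 2, 60.8% of the control mean and below every control. The log2 difference was -0.72 (SE 0.30, limma adjusted p = 0.165, blocked 0.0230; 0.0230 to 0.408 over the alternatives).

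NFU1 was at 533, 536, 527 and 627 in the controls and at 425 and 465 in the line labelled KO guide 2. All control libraries were above both. The log2 difference was -0.32 (SE 0.13, limma adjusted p = 0.159, blocked 0.0452; 0.0452 to 0.724 over the alternatives). PCBP1 also lay below all controls, at 7009 and 7822 against 8071 to 10292, with a log2 difference of -0.25 (SE 0.13, limma adjusted p = 0.259, blocked 0.0757). With AAK1 and MXD1 this made 4 of 9 below all controls, while 15.7% of all tested genes were, and GFPT1 made 1 of 9 above, against 13.8%.

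TIA1, a splicing regulator that collects in stress granules, was at 785 and 1065 against 1041 to 1387 in the controls, a log2 difference of -0.42 (SE 0.16, limma adjusted p = 0.142, blocked 0.0308; 0.0308 to 0.516 over the alternatives). SNRNP27, a protein of the spliceosomal tri-snRNP, was at 419 and 611 against 574 to 759, a log2 difference of -0.41 (SE 0.18, limma adjusted p = 0.194, blocked 0.0215; 0.0215 to 0.680 over the alternatives). In both genes replicate 1 lay below all controls and replicate 2 among them. C2orf42, the lowest count of the 10, was at 121 and 71.2 against 103 to 143 (log2 difference -0.33, SE 0.26, limma adjusted p = 0.479).

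GFPT1 alone went the other way. Its 2 libraries there held 3261 and 2984, both over the highest control of 2884. The log2 difference was 0.32 (SE 0.13, limma adjusted p = 0.142, blocked 0.0450; 0.0196 to 0.418 over the alternatives).

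**Figure D2:**
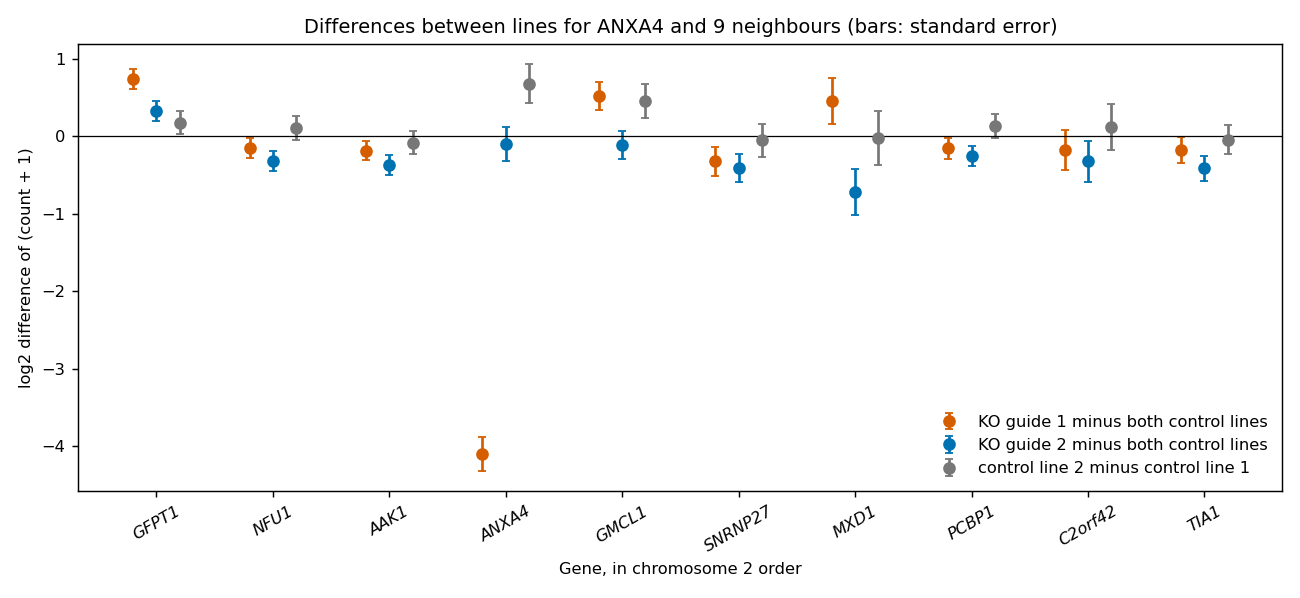
Log2 difference of (normalized count + 1) for each of the 10 genes, in chromosome order, with its standard error as the bar. Orange is the KO guide 1 line minus both control lines, blue the line labelled KO guide 2 minus both control lines, and grey control line 2 minus control line 1. ANXA4 stands at -4.10 in orange and at -0.10 in blue, and 8 of the 9 neighbours are below 0 in blue.

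The comparisons of the 2 knockout-labelled lines with the controls share the control libraries, so the lines were also set against each other. Of the 2, the line labelled KO guide 2 had the lower mean for all 9 neighbours, with log2 differences of -1.17 to -0.09 and a median of -0.19. None was called by limma, where 6.94% of all tested genes were, 3 had an unadjusted p under 0.05 (24.2% of all genes), edgeR called 0 (6.55% of all genes) and DESeq2 called MXD1 (9.91% of all genes). MXD1 gave -1.17 (SE 0.34, limma adjusted p = 0.0783, blocked 0.00475; 0.00475 to 0.375 over the alternatives), and without KO guide 1 replicate 2, where it was at 400, the value was -0.58. GMCL1 gave -0.63 (SE 0.21, limma adjusted p = 0.111, blocked 0.00782; 0.00782 to 0.390 over the alternatives) and GFPT1 -0.41 (SE 0.15, limma adjusted p = 0.125, blocked 0.0317; 0.0317 to 0.507 over the alternatives). With the block these 3 were called lower, where 14.0% of all tested genes were.

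Between the control lines none of the 9 neighbours was called by limma, edgeR or DESeq2, and none had an unadjusted p under 0.05 in any of the 3 tests, where 15.5%, 15.6% and 13.6% of all tested genes did by limma, edgeR and DESeq2. Of all tested genes 2.13% were called by limma, 2.04% by edgeR and 4.67% by DESeq2. The neighbours' log2 differences ran from -0.09 to 0.45 with a median of 0.10, and the highest was that of GMCL1 (SE 0.21, limma adjusted p = 0.358). With both knockout-labelled lines averaged against both control lines, none of the 10 genes was called, where 0.235% of all tested genes were, 2 had an unadjusted p under 0.05 (11.5% of all genes), and edgeR called 0, against 1.32% of all genes. DESeq2, which called 6.05% of all genes, called GFPT1 (0.55, adjusted p = 0.0216).

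Dividing ANXA4 by the geometric mean of its 9 neighbours in the same library removes whatever scales all 10 genes alike. The counts are not per length, so this ratio compares libraries and says nothing of which gene is transcribed more. Control line 1 had ratios of 3.92 and 4.89, control line 2 of 5.23 and 8.31, the line labelled KO guide 2 of 5.66 and 6.65, and the KO guide 1 line of 0.318 and 0.283. The line labelled KO guide 2 lay within the range of the controls and the KO guide 1 line far below it.

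**Figure D3:**
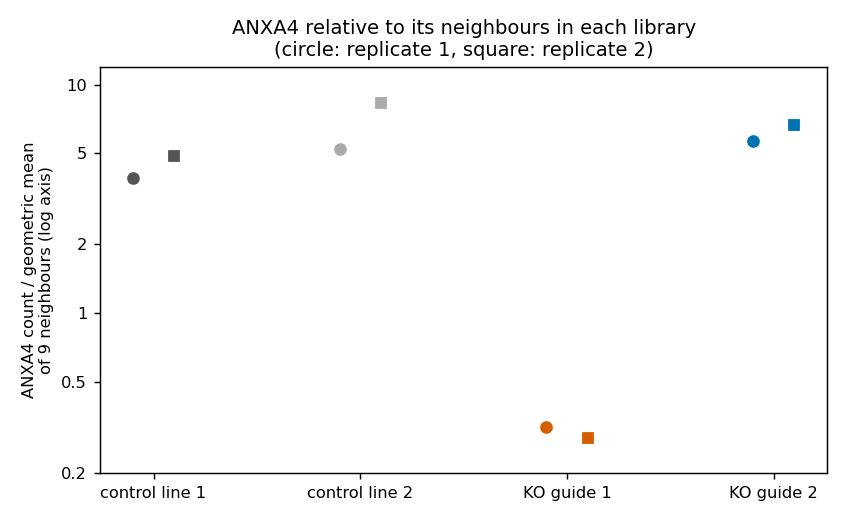
ANXA4 normalized count divided by the geometric mean of its 9 neighbours (vertical log axis, no unit) in each library of the 4 lines, with a circle for replicate 1 and a square for replicate 2. The KO guide 1 libraries are at 0.318 and 0.283 and the 6 other libraries between 3.92 and 8.31.

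The neighbours in the line labelled KO guide 2 were then set beside the rest of chromosome 2. The 953 other tested genes of the chromosome had a median log2 difference of -0.26 in this line, against 0.02 for genes off the chromosome, and 72.5% of them were below 0. Of these 953, 152 were called lower and 17 higher by limma, where 6.67% and 4.54% of all tested genes were. The 152 became 329 with the replicate block and 86 against control line 2 alone. It was 89 without control line 1 replicate 1, 75 without control line 1 replicate 2 and 91 without replicate 1 of the line itself. In replicates 1 and 2 alone the medians against the control mean were -0.30 and -0.21. The neighbours' median of -0.33 was thus close to that of the chromosome. GFPT1 at 0.32, ANXA4 at -0.10, GMCL1 at -0.11 and, by little, PCBP1 at -0.25 lay above the chromosome median.

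In steps of 20 Mb from the ANXA4 start, chosen after the data were seen, the 11 steps from -80 Mb to 140 Mb had medians of -0.36 to -0.15 in the line labelled KO guide 2. The last 2, to the end of the long arm, had medians of 0.13 and 0.06. In the KO guide 1 line the chromosome 2 median was 0.01, and between the control lines it was 0.02. In the KO guide 1 line 28 of the 953 were called lower and 30 higher, where 3.18% and 3.82% of all tested genes were. The 28 became 104 with the block, 45 by DESeq2 and 8 against control line 2 alone. It was 14 and 13 without replicate 1 or 2 of control line 1, and 5 and 7 without replicate 1 or 2 of the line itself.

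Medians of other chromosomes also lay away from 0, but were not followed along the chromosome. In the line labelled KO guide 2, chromosome 2 had the third lowest median of the 22 autosomes, where the 21 others ran from -0.48 (chromosome 3) to 0.25 (chromosome 16). In the KO guide 1 line the 21 others ran from -0.41 (chromosome 21) to 0.29 (chromosome 8). Between the control lines they ran from -0.43 (chromosome 3) to 0.21 (chromosome 15). With libraries scaled on chromosome 2 genes, the neighbours' median in the line labelled KO guide 2 was -0.08 with 7 of 9 below 0, 0 were called lower, GFPT1 was called higher (0.57, limma adjusted p = 0.0196) and ANXA4 was at 0.15. Of the 953 others, 87 were then called lower and 74 higher.

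**Figure D4:**
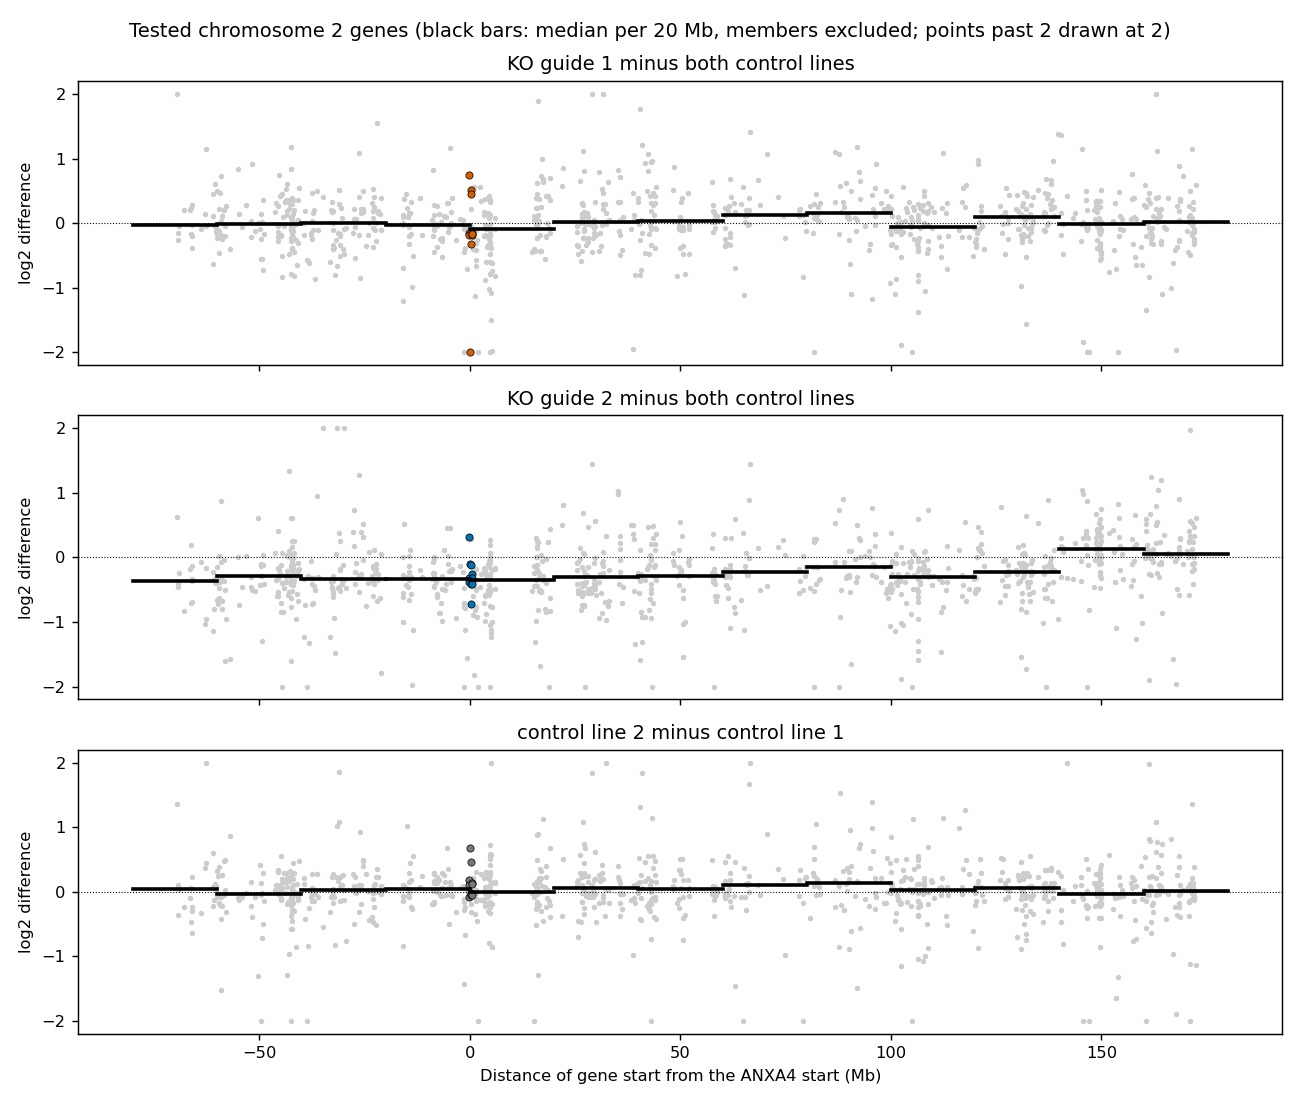
Log2 difference of each tested chromosome 2 gene (points) against the distance of its start from the ANXA4 start in Mb, for the KO guide 1 line, the line labelled KO guide 2 and the control lines. Coloured points are the 10 genes, black bars medians per 20 Mb without them, and points beyond 2 or -2 are drawn there, ANXA4 in the KO guide 1 line among them. In the middle panel the bars are below 0 from -80 Mb to 140 Mb and at 0.13 and 0.06 after that.

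Nearer to ANXA4, 68 tested genes outside the 10 start within 5 Mb. In the line labelled KO guide 2, 22 of them were called lower and 0 higher by limma, where 6.67% and 4.54% of all tested genes were. The median log2 difference of the 68 there was -0.47. In the KO guide 1 line 7 were called lower and 0 higher, where 3.18% and 3.82% of all tested genes were, with a median of -0.19. Between the control lines 0 were called in either direction, where 2.13% of all tested genes were, with a median of -0.02. The count in the KO guide 1 line was 2 without its replicate 1 and 3 without its replicate 2, 4 without control line 1 replicate 1, 4 against control line 2 alone and 16 with the replicate block. That in the line labelled KO guide 2 was 37 with the block, and fell to 13 without control line 1 replicate 2 or against control line 2 alone.

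The 5 genes with the largest called differences within 5 Mb were DYSF, LOXL3, CNRIP1, DOK1 and PRADC1 in the KO guide 1 line and CNRIP1, LOXL3, DYSF, ADD2 and ANTXR1 in the line labelled KO guide 2. Of these, PRADC1 and ADD2 were called in 1 line and the others were called lower in both. LOXL3, a lysyl oxidase relative that cross-links matrix and starts 4.89 Mb from ANXA4, was at 219, 211, 292 and 242 in the controls, 31.3 and 34.2 in the KO guide 1 line and 21.7 and 31.4 in the line labelled KO guide 2. Every control was above every knockout-labelled library. The log2 differences were -2.83 (SE 0.21, limma adjusted p = 0.000385) and -3.15 (SE 0.21, limma adjusted p = 0.000153). For DOK1, a docking protein of tyrosine kinases, the log2 differences were -1.08 (limma adjusted p = 0.00418) and -1.16 (limma adjusted p = 0.00243), and the first call was lost without KO guide 1 replicate 1 (0.0721). That of PRADC1 in the KO guide 1 line (-0.88, limma adjusted p = 0.0270) was lost against control line 2 alone and without any of 5 single libraries (adjusted p up to 0.223). LOXL3 overlaps HTRA2 and DOK1, and without a stated strand setting, reads of overlapping genes cannot be told apart. The same holds for CNRIP1, which overlaps PPP3R1-AS1.

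DYSF, the muscle membrane-repair protein dysferlin, starts 1.81 Mb after the ANXA4 start. Control line 1 held 53.3 and 66.6 normalized counts and control line 2 held 9.46 and 10.2. Each KO guide 1 library held 1 read, and the line labelled KO guide 2 held 1 and 3. Against the 142 control reads the levels were 38.9-fold lower (95% counting interval 10.6 to 324) and 15.6-fold lower (5.95 to 57.9), where the interval covers counting error only and not the gap between the control lines. Both calls (limma adjusted p = 0.00301 and 0.00529) were lost against control line 2 alone (0.0508 and 0.0913).

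CNRIP1, a partner of the cannabinoid receptor, starts 1.36 Mb before ANXA4. Control line 1 held 53.3 and 61.4 counts, control line 2 held 18.9 and 22.7 and the KO guide 1 line 5.48 and 4.15 (log2 difference -2.62, SE 0.38, limma adjusted p = 0.00621). That call was lost against control line 2 alone (0.0608) and without replicate 1 or 2 of the KO guide 1 line (0.0579 and 0.0809). The line labelled KO guide 2 held no read in either library, at least 11.6-fold lower than the control mean at a floor of 3 reads per library (limma adjusted p = 0.000249).

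ANTXR1, a collagen-binding receptor for anthrax toxin, starts 0.63 Mb before ANXA4. It was at 2470, 2135, 2433 and 2185 in the controls, 1501 and 1305 in the KO guide 1 line and 724 and 844 in the line labelled KO guide 2. The 3 groups did not overlap. The log2 differences from the controls were -0.72 (SE 0.13, limma adjusted p = 0.0156) and -1.56 (SE 0.13, limma adjusted p = 0.000437), and the 2 lines differed by -0.84 (limma adjusted p = 0.0169). The call in the KO guide 1 line was lost without control line 1 replicate 1 (0.0586) and without its own replicate 1 (0.0880) or 2 (0.174), and that between the lines without the latter 2 libraries (0.117 and 0.0995).

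ADD2, a subunit of the membrane-skeleton protein adducin, starts 1.01 Mb after the ANXA4 start and moved apart in the 2 lines. It was at 806, 651, 884 and 602 in the controls, 1064 and 1068 in the KO guide 1 line and 274 and 152 in the line labelled KO guide 2. The KO guide 1 libraries were above all controls and the others below all of them. The log2 differences were 0.55 (SE 0.24, limma adjusted p = 0.211, blocked 0.0183) and -1.83 (SE 0.24, limma adjusted p = 0.00324), and the difference of the lines was -2.38 (limma adjusted p = 0.00384).

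Between the outermost of the 10 genes the table holds 4 others, 2 of them tested. ASPRV1, which overlaps MXD1, was at 12.4 to 26.9 in all libraries, and PCBP1-AS1, which overlaps PCBP1, at 36.3 to 70.5. Neither was called in any of the 5 comparisons. SNORA36C, inside AAK1, was at 0 in every library and LINC01816 did not pass 3 reads. SMANTIS, a long non-coding RNA that overlaps ANXA4, was not analysed here.

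The genes whose pattern was most like that of ANXA4 were not on chromosome 2. By Pearson's r of log2 values over the 8 libraries, a description over 4 lines that share their control lines, the 5 closest of 14030 genes were VPS16 (0.993), LSM14B (0.992), MANBAL (0.979), ELOF1 (0.978) and SNRPB (0.977). VPS16, a subunit of the complexes that tether lysosomes, was at 302 to 347 in the controls, 187 and 183 in the KO guide 1 line and 328 and 319 in the line labelled KO guide 2. The KO guide 1 libraries were below the 6 others, with a log2 difference of -0.79 (limma adjusted p = 0.0121). All 5 were called lower in the KO guide 1 line than in the controls. They were picked for following ANXA4 over these same libraries, so a lower level in that line came with the choice. Each of the 5 calls was lost without at least 1 library (limma adjusted p up to 0.201). ELOF1 is on chromosome 19 and the 4 others on chromosome 20, where the median log2 difference in the KO guide 1 line was -0.39. Of 392 tested genes of chromosome 20, 84 were called lower in that line, against 3.18% of all tested genes. That count was 189 with the block, 37 against control line 2 alone, 29, 19 and 46 without control line 1 replicate 1, control line 1 replicate 2 and control line 2 replicate 2, and 7 and 6 without KO guide 1 replicates 1 and 2. Among the 9 neighbours r with ANXA4 ran from -0.84 (GFPT1) to 0.38 (SNRNP27).

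Relatives and partners of the 10 genes, on any chromosome and chromosome 2 included, were taken from 8 lists, of which 63 of 65 genes were tested. In the KO guide 1 line 4 were called lower and 1 higher by limma, and in the line labelled KO guide 2 6 lower and 3 higher. Over all tested genes the shares called were 3.18% lower and 3.82% higher in the first line and 6.67% and 4.54% in the other. The list genes had median log2 differences of -0.02 and -0.04 beside -0.00 and 0.01 over all tested genes. Of these 5 and 9 calls, 1 in each line was kept in every alternative, PCBP4 in the first and ISCU in the other, and the rest were lost in at least 1, as were all 3 calls of list genes between the knockout-labelled lines. The lists were chosen with earlier results of these data known.

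Of 10 other annexins tested, ANXA10 was called lower and ANXA3 higher in both lines, and ANXA6 lower in the line labelled KO guide 2. For ANXA10, control line 1 held 171 and 190 counts, control line 2 held 472 and 913, the KO guide 1 line 61.8 and 91.3 and the line labelled KO guide 2 100.3 and 107. It was also called between the control lines (log2 difference 1.86, SE 0.31, limma adjusted p = 0.0278), beside -2.18 and -1.72 for the 2 lines against the controls. The call between the control lines was lost without either library of control line 1 (0.166 and 0.167) or without control line 2 replicate 2 (0.106), that in the KO guide 1 line without its replicate 1 (0.0521), and that in the line labelled KO guide 2 against control line 1 alone (0.139). ANXA3 was at 2299.5, 2142, 3455 and 3044 in the controls and at 3713 to 3839 in the knockout-labelled libraries, above all controls (0.51 and 0.48, limma adjusted p = 0.0282 and 0.0239). The control lines themselves differed in ANXA3 by 0.55 (limma adjusted p = 0.0625). Against control line 2 alone both ANXA3 calls were lost (0.24 and 0.21, limma adjusted p = 0.351 and 0.402). ANXA6 was at 2892 and 2879 in the line labelled KO guide 2 against 4047 to 4610 in the controls (-0.58, limma adjusted p = 0.0158). ANXA1 was at 21593 and 19342 in the KO guide 1 line and at 13445 and 14267 in the other, a called difference (limma adjusted p = 0.0462) that was lost without any 1 of the 8 libraries (0.0646 to 0.244).

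Beside GFPT1, none of 6 other hexosamine pathway genes was called against the controls in either line by limma. GFPT2, the second enzyme for the same step, was at 1273 and 1481 in the KO guide 1 line and at 935 and 735 in the line labelled KO guide 2, a called difference of -0.73 (limma adjusted p = 0.0436). Neither line was called against the controls, which held 791 to 1142.

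Of 11 iron-sulfur cluster genes, FDX2, a mitochondrial ferredoxin, was called lower in the KO guide 1 line (-0.54, limma adjusted p = 0.0467), and ISCU, the assembly scaffold, higher in the line labelled KO guide 2 (0.94, limma adjusted p = 0.00661). ISCU was at 2784 and 2120 there against 1154 to 1498 in the controls. Of 8 relatives and AP2 targets of AAK1, 2 were called in the line labelled KO guide 2: AP2M1, the subunit that AAK1 phosphorylates, was lower (-0.81, limma adjusted p = 0.0201) and the kinase STK16 higher (0.60, limma adjusted p = 0.0383). AP2M1 was at 8743 and 5803 there against 10327 to 14595 in the controls. Against control line 2 alone both calls were lost (AP2M1 -0.64, STK16 0.62, limma adjusted p = 0.106 and 0.0816). Whether the levels of AAK1 and AP2M1 are linked was not tested.

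Of 11 other tri-snRNP genes, PRPF4 (-0.55, limma adjusted p = 0.0197) and USP39 (-0.45, limma adjusted p = 0.0478) were called lower in the line labelled KO guide 2 and none in the KO guide 1 line. With scaling on chromosome 2 genes neither was called (PRPF4 -0.30, USP39 -0.20, limma adjusted p = 0.120 and 0.291). Of 9 genes of the MAX network, MXD3, a relative of MXD1, was called lower in the KO guide 1 line (-1.02, limma adjusted p = 0.0379), and SIN3A, the corepressor that MXD1 recruits, differed between the 2 knockout-labelled lines, lower in the second (-0.64, limma adjusted p = 0.0447). PCBP4 was the 1 of 4 relatives of PCBP1 that was called, lower in both lines (-1.34 and -0.80, limma adjusted p = 0.00225 and 0.0136), with the control lines themselves at 763 to 810 and 395 to 508. None of 4 stress granule partners of TIA1 was called in any comparison by limma.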

How the data were processed

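The labels describe 8 polyA RNA libraries in 4 lines. Per the submitters' processing notes the tools were fastp 0.23.2, HISAT2 2.2.1, featureCounts 2.0.1 and DESeq2 2.11.40.8 with build hg38 (GRCh38). The gene annotation and the strand setting are not given in the sources used here. The deposited values are a normalized signal, 1 column per library, from which whole reads were recovered: the 140322 nonzero entries were all (100%) whole numbers after division by a factor per library, within a relative tolerance of 1e-06. Gene symbols (27745 of 28395 identifiers matched), positions and promoters came from RefSeq GRCh38.p14, and exons from GENCODE v29.

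A single model on log2(value + 1), with a mean for each of the 4 lines and a trend of variance with level, gave the comparisons (limma 3.58.1, R 4.3.3). Fold changes are on that scale, which understates the change of low genes. A gene was tested if 2 or more libraries reached 10 (14040 genes), Benjamini-Hochberg adjustment ran over all of them, and a call is an adjusted p under 0.05. The control reference is the mean of both control lines. The arms of 4 libraries were compared with libraries of a line correlated at 0.33 (duplicateCorrelation). Counting intervals are exact binomial (95%) and, since reads carried no molecular identifiers, cover counting error only.

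The differences between replicates 2 and 1 correlated between every pair of lines (Pearson's r 0.285 to 0.501 over 6 pairs), so the replicate numbers of the titles were taken as pairs. The pairing rests on these correlations and the numbers alone. Values with the replicate block stand beside results they changed. No 2 replicates were the same library deposited again (chi-square per degree of freedom 18.8 to 72.3).

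Alternatives were the pseudocount, the filter, the scaling, edgeR 4.0.16 and DESeq2 1.42.0 on recovered reads, the block, each control line alone and leaving out each library. The tests were checked on simulated data. Genes named outside the 10 are those between the outermost of them, the 5 with the largest called change within 5 Mb in each line, the 5 most correlated with ANXA4, and called members of 8 lists. The 10 genes and the lists were chosen with earlier results of these data known.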

Additional observations from a re-analysis of the deposited data

Results flagged for a closer look

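The difference between the 2 knockout-labelled lines was itself tested by limma over all 14040 genes, of which 6.94% were called. It was called for 12 of 36 genes looked at (the 10, those near and most like ANXA4, and called list genes). The genes near ANXA4 and the list genes entered because they were called in these data, and the most like ANXA4 through that likeness. The count of 12 therefore cannot be read against the share over all genes. For ANXA4 the line labelled KO guide 2 exceeded the KO guide 1 line by 3.998 on the log2 scale. CNRIP1 was lower there than in the KO guide 1 line by a log2 difference of -2.53, ADD2 by -2.38, ANTXR1 by -0.84, GFPT2 by -0.73, SIN3A by -0.64 and ANXA1 by -0.56. The 5 genes most like ANXA4, picked for that likeness over the same libraries, were higher there: VPS16 by 0.80, LSM14B by 0.74, SNRPB by 0.72, ELOF1 by 0.52 and MANBAL by 0.51. Leaving out single libraries ended the call of each except ANXA4 and ADD2 in at least 1 case. The call of CNRIP1 rested on 7 and 4 reads in the KO guide 1 line against 0 and 0. It was also lost with a pseudocount of 10 in place of 1 (-0.57, limma adjusted p = 0.159).

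5 of the 36 genes had 1 library apart from its group by Dixon's ratio of the gap to the range in 4 libraries, which chance flags in about 1 of 20 groups. As 72 groups were looked at, the 5 flags are not far from that rate. Each group joined libraries of different lines, so the rate is only a guide. In the controls NFU1 was at 627 in control line 2 replicate 2 and at 527 to 536 in the other 3, a ratio of 0.909. In the knockout-labelled libraries PCBP1 was at 7009 in replicate 1 of the line labelled KO guide 2 and at 7814 to 7972 in the others, a ratio of 0.836. ANXA6 was at 3515 in KO guide 1 replicate 2 and at 2879 to 2959 in the others, a ratio of 0.874. In the controls MXD3 was at 418 in control line 2 replicate 2 and at 254 to 278 in the others, a ratio of 0.855. In the knockout-labelled libraries DYSF had 3 reads in replicate 2 of the line labelled KO guide 2 and 1 in each of the other 3. That ratio of 0.910 rests on single reads.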

How the results depend on the processing

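ANXA4 stayed called in the KO guide 1 line under all 20 alternatives (-4.44 to -3.76, adjusted p at most 0.0024). In the line labelled KO guide 2 it was called in none (-0.44 to 0.24), and its sign reversed to 0.24 against control line 1 alone, to 0.15 with scaling on chromosome 2 genes, and within a range of -0.30 to 0.10 when single libraries were left out. GMCL1 there reversed to 0.11 and 0.13 under the first 2 and ran from -0.37 to 0.14 under the last.

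The 10 genes called numbered 2 in the KO guide 1 line, 1 against control line 2 alone and 1 to 2 without single libraries. In the line labelled KO guide 2 they numbered 0, and 1 with scaling on chromosome 2. Between these lines they numbered 1, 2 by DESeq2 and 1 to 2 without single libraries, and between the arms 0, and 1 by DESeq2.

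With the replicate block, which uses the pairing of replicate numbers, they numbered 3 in the KO guide 1 line, 6 in the line labelled KO guide 2, 4 between these lines and 1 between the control lines (ANXA4, 0.68). It changed no call of the 10 genes beyond those printed with the results. Over all genes the block called 3432, 3851, 3442 and 1752, against 984, 1573, 975 and 299.

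Leaving out single libraries gave counts over all genes of 148 to 1312 in the KO guide 1 line (lowest without either of its own libraries), 813 to 1363 in the line labelled KO guide 2 (lowest without control line 1 replicate 1), 87 to 1003 between these lines (lowest without KO guide 1 replicate 2), 43 to 410 between the control lines and 7 to 39 between the arms. Further counts over all genes that moved past 1.5 times were 2849 in the line labelled KO guide 2, 1904 between the knockout-labelled lines and 16 between the arms (main count 33) with scaling on chromosome 2; 341 and 735 in the 2 lines against control line 2 alone; 655 and 850 between control lines and arms by DESeq2, 186 between arms by edgeR; 183 and 71 without the filter; and 0 between arms with 1 mean per line. The split of calls in the line labelled KO guide 2 was 936 lower and 637 higher, and 554 and 2295 with scaling on chromosome 2. Between the knockout-labelled lines it was 636 and 339, and 341 and 1563.

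Between the knockout-labelled lines that scaling reversed NFU1 (0.0908), AAK1 (0.0624), SNRNP27 (0.17), PCBP1 (0.16), C2orf42 (0.10) and TIA1 (0.0133), none called. MXD1 between the arms was 0.0610 by edgeR and 0.0593 by DESeq2. Leaving out single libraries reversed signs of uncalled values: in the KO guide 1 line C2orf42 (-0.38 to 0.0282) and MXD1 (-0.13 to 1.03), in the line labelled KO guide 2 C2orf42 (-0.70 to 0.0522), between these lines C2orf42 (-0.53 to 0.23) and SNRNP27 (-0.36 to 0.19), and between the arms MXD1 (-0.50 to 0.0255). Between the control lines it did so for MXD1 (-0.22 to 0.18), TIA1 (-0.25 to 0.16), AAK1 (-0.18 to 0.00788), SNRNP27 (-0.25 to 0.15), NFU1 (-0.0214 to 0.23), PCBP1 (-0.0257 to 0.29) and C2orf42 (-0.12 to 0.35). The counts near ANXA4 and on chromosomes 2 and 20 under alternatives, and those of named genes outside the 10, were added after the data were seen. The cause of these changes was not tested. 2 libraries per line limit precision throughout.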
